A study of Drosophila melanogaster with 12 samples.

Results

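LysX, LysP and LysS are 3 lysozyme genes of the fruit fly (Drosophila melanogaster), each read here by 1 probe set of an Affymetrix Drosophila genome array. They were taken because their symbols fit the family name Lys plus 1 letter and because the platform annotation gives their probe sets a single symbol; they are 3 of the 11982 genes with such a probe set. They were also picked on a result in adults, in which LysX read higher in the knockdown while LysP and LysS read lower. The adult values are therefore given as a description with no test, and the larval arrays, which the choice did not use, carry the tests. The RefSeq gene table names LysB, LysC, LysD and LysE in the same family; no probe set carries their symbols in the annotation used here, so they were not analysed here.

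Lysozymes of this family, called c-type after the chicken enzyme, cleave the glycosidic bonds of the peptidoglycan that forms the bacterial cell wall. In many animals they are part of the defence against bacteria. In fruit flies the Lys genes lie in a cluster and are known mainly for expression in the digestive tract, where the enzymes digest bacteria taken up with the food. LysP is known from the adult salivary gland and LysS from the gastric caeca, pouches at the front of the midgut.

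The study measured RNA of 4 groups with 3 arrays each: adults with a knockdown of SPS2, adults labelled wild type, larvae with the SPS2 knockdown and larvae labelled wild type. SPS2 is selenophosphate synthetase 2, the enzyme that makes the selenium donor for selenocysteine, encoded by Sps2. Every group was raised on cornmeal and yeast food, and the labels call the 3 arrays of a group biological replicates. The sources used here do not give the way of knockdown, its driver line, the origin of the wild-type line, the age and sex of the animals or the body part sampled. In material of many cell types, a lower reading from fewer cells that express a gene and from less RNA per cell cannot be told apart.

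Values are log2 MAS5 signals, on which 1 unit is a doubling of the signal. Sps2 read 7.01 ± 0.16 in adult knockdown against 9.81 ± 0.03 in adult wild type, and 7.29 ± 0.23 against 9.60 ± 0.11 in larvae (SD, n = 3), with no overlap of groups at either stage. The authors' scaling left the median of the adult knockdown arrays 0.28 below that of adult wild type, and the larval median 0.09 above, so small adult changes depend on the scaling. In adults 1742 probe sets were called higher and 1975 lower (13.6% and 15.4%), and with each array centred on its median 4666 and 779; in larvae these were 1918 and 1369 (15.0% and 10.7%), and 1189 and 1690. Of 12 larval salivary gland glue genes with a probe set, 5 were tested. Their summed linear signal was 40.1 to 82.0 on adult arrays and 32400 to 53600 on larval arrays. As larval arrays alone could bring a gene into the test, this describes the stages and does not check the stage labels. The 40th percentile of an array, 5.10 to 5.39 here, served as the level below which a signal was taken as dim. All 3 lysozyme genes reached it on at least 3 of the 12 arrays and were tested. LysX passed through adult knockdown and most larval arrays, LysP through all but larval knockdown, and LysS through all but adult knockdown.

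In larvae, LysP was much lower with the knockdown. It read 7.61, 7.84 and 7.72 on the wild-type arrays and 4.31, 3.80 and 3.81 on the knockdown arrays. All 3 knockdown readings lay below the dim level, at the 20.1st to 25.9th percentile of their arrays, whereas wild-type readings lay at the 64.4th to 66.7th percentile, and the groups were far from overlapping. The log2 change was -3.75 (SE 0.14, 95% interval -4.07 to -3.43, n = 3 per group, limma adjusted p = 6.02e-09). With the larval arrays alone the SE was 0.26 (limma adjusted p = 2.37e-05). Because the knockdown signal was dim, the fall is better given as at least 5.54-fold, taken against the 40th percentile of those arrays. Only 25 of the 12827 probe sets tested, LysP included, had a log2 change as low as -3.75 in the larval contrast. That rank uses the dim readings as they stand, and none was taken for the bounded fall. With any 1 of the 12 arrays left out the change stayed between -3.92 and -3.66.

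LysX was not called in larvae. Wild-type larvae read 5.84, 6.16 and 5.95, and larvae of the knockdown group 3.27, 5.52 and 6.02. The first of these, replicate 1, stood far below the other two, which lay in or just under the wild-type range, so the groups overlapped. The log2 change was -1.05 (SE 0.74, 95% interval -2.76 to 0.66, limma adjusted p = 0.34). With the larval arrays alone the SE was 0.62 (adjusted p = 0.3). Without larval knockdown replicate 1 the change was -0.22 (adjusted p = 0.85). Without knockdown replicate 3 it was -1.59 (adjusted p = 0.182).

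LysS was among the strongest signals of the larval arrays and was not called either. Wild-type larvae read 13.43, 14.09 and 14.19, and knockdown larvae 13.53, 13.69 and 13.84, all at or above the 98.2nd percentile of their arrays. The knockdown readings lay within the wild-type range. The log2 change was -0.22 (SE 0.40, 95% interval -1.15 to 0.71, limma adjusted p = 0.741). With the larval arrays alone the SE was 0.17 (adjusted p = 0.452). The change was -0.45 (adjusted p = 0.509) once replicate 1 of the wild type, the lowest of its group, was left out, and -0.12 or -0.08 with replicate 2 or 3 left out.

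Thus 1 of the 3 genes was called in larvae, where 25.6% of all probe sets tested were called in either direction and 10.7% were called lower. A count of 1 in 3 is close to that background. Groups were separate for LysP alone, and for 35.4% of all probe sets tested.

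**Figure D1:**
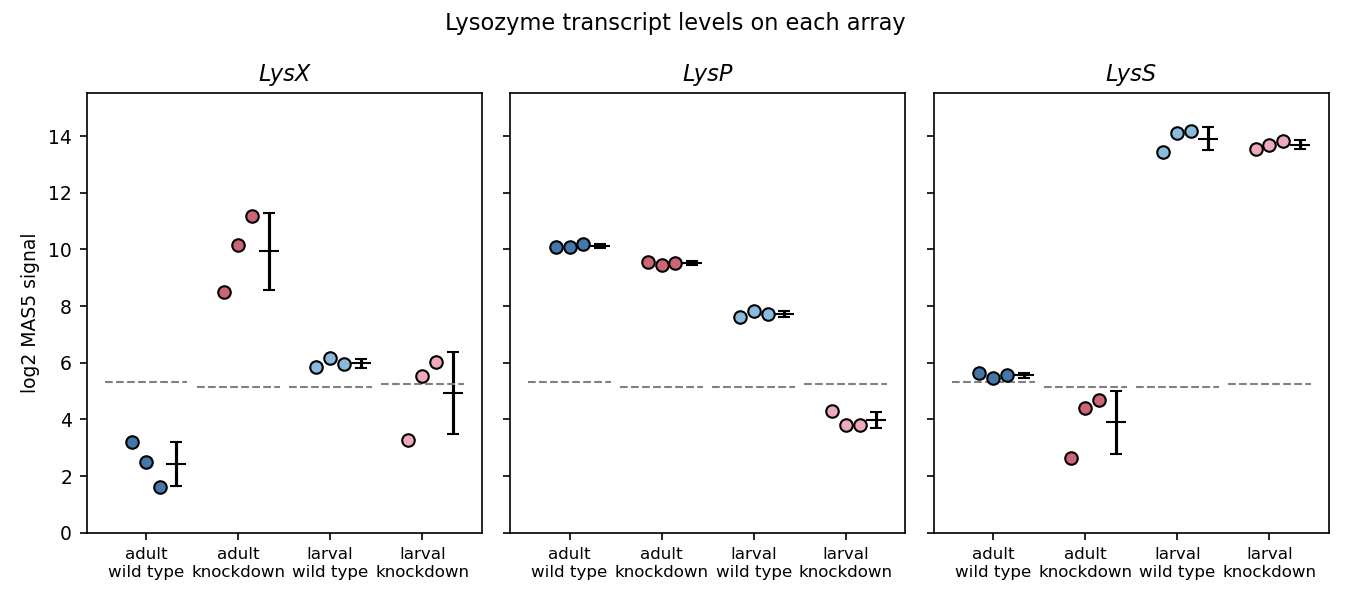
Log2 MAS5 signal (vertical axis) of LysX, LysP and LysS on each of 12 arrays, by group. Points are single arrays, black dashes with bars are the mean and SD of 3 arrays, and grey dashed lines are the mean 40th percentile of the group's arrays; LysP readings of larval knockdown (up to 4.31) and LysX readings of adult wild type (1.60 to 3.19) lie below that line.

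In adults, the stage on which the genes were picked, LysX read 8.50, 10.14 and 11.17 on the knockdown arrays and 3.19, 2.50 and 1.60 on the wild-type arrays. In linear signal these are 362 to 2300 against 3.04 to 9.10. Every wild-type reading was dim, at the 18.0th percentile of its array or lower, and every knockdown reading was well above that, at the 66.1st to 93.1st percentile. The log2 difference was 7.50, or at least 24.3-fold against the 40th percentile of the wild-type arrays. Since wild-type signals were so low, a floor at that percentile brings the difference to 4.60.

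The adult knockdown arrays spread widely in LysX, over 2.67 log2 units with an SD of 1.35. Among all probe sets tested, 1.66% had an SD at least as large in that group. Replicate 1 was the lowest for LysX and also for LysS. In larval knockdown replicate 1 was again the lowest for both genes, and it was the highest for LysP. These replicates carry a number only, and what made them differ was not tested.

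LysP in adults read 9.57, 9.46 and 9.53 on the knockdown arrays and 10.10, 10.08 and 10.20 on the wild-type arrays, all clearly above the dim level. The groups were separate and each was tight, with SDs of 0.06 and 0.07. The log2 difference was -0.61, a 1.52-fold lower signal, and it was -0.33 with each array centred on its median and -0.78 after quantile normalization. The direction was thus the same as in larvae at a far smaller size. The adult minus larval difference of the changes was 3.14, given as a description since it holds the adult contrast.

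LysS in adults lay at the edge of what the arrays measure. Wild-type adults read 5.62, 5.45 and 5.58, just above the 40th percentile, and knockdown adults 2.63, 4.40 and 4.68, all below it. The groups did not overlap and the log2 difference was -1.65. It was -1.01 without adult knockdown replicate 1 and -0.41 with the floor, a fall of at least 1.33-fold under the authors' scaling. The 40th percentile itself was lower on adult knockdown arrays (5.10 to 5.17) than on adult wild-type arrays (5.30 to 5.39). That bound therefore depends on the scaling. All 3 genes had separate groups in adults, as did 58.2% of all probe sets tested, and the genes were picked on this contrast, so nothing is read from that count.

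Across the 4 groups each gene had its own order of levels. LysX was highest in adult knockdown (9.93 ± 1.35), followed by larval wild type (5.98 ± 0.16) and larval knockdown (4.93 ± 1.46), which overlapped, and adult wild type (2.43 ± 0.79), whose highest array (3.19) lay just below the lowest larval knockdown array (3.27). LysP went down from adult wild type (10.13 ± 0.07) to adult knockdown (9.52 ± 0.06), larval wild type (7.72 ± 0.12) and larval knockdown (3.97 ± 0.29), with no overlap between neighbours. LysS was high in larvae of both genotypes (13.90 ± 0.41 in wild type and 13.69 ± 0.16 in knockdown, overlapping) and low in adult wild type (5.55 ± 0.09) and adult knockdown (3.90 ± 1.11).

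Stage differences, which include the adult arrays used in the choice, are given without tests. In wild type, adult minus larva was 2.40 for LysP, -8.35 for LysS and -3.55 for LysX. As adult LysX was dim on every wild-type array, it was at least 1.57-fold higher in larvae. In the knockdown the stage difference of LysX had the opposite sign, at 5.0, while that of LysP grew to 5.55, at least 19.3-fold higher in adults because larval knockdown readings were dim. That of LysS was -9.79, at least 375-fold lower in adults. LysP, known from the adult salivary gland, was thus the gene of the 3 that read higher in adults of both genotypes, and LysS, known from the gastric caeca, the one that read higher in larvae of both. For comparison, 85.1% of all probe sets tested had separate groups between stages in wild type and 84.3% in the knockdown.

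Lysozymes outside the Lys family went in several directions. Of 6 further c-type genes with a probe set, CG11159 and CG30062 were dim on all 12 arrays and were not tested. CG16799 fell at both stages: adults read 9.09 against 9.69 (log2 change -0.60, SE 0.09, adjusted p = 0.000531) and larvae 9.99 against 10.76 (-0.77, SE 0.09, adjusted p = 8.74e-05). CG16756 rose in larvae, from 7.99 to 9.09 (1.09, SE 0.14, adjusted p = 0.000143), and read 9.62 against 9.42 in adults (0.20; adjusted p = 0.318). CG7798 rose in larvae from 9.25 to 10.02 (0.77, SE 0.22, adjusted p = 0.0221), a call that was lost under 5 of 21 alternatives, among them the replicate block (adjusted p = 0.0599). In adults CG7798 was also called higher (0.66, adjusted p = 0.0396), but 5 of the 6 adult arrays were dim for it and the change was -0.06 with the floor. CG8492 had log2 changes of 0.13 in adults and -0.32 in larvae, with adjusted p = 0.9 and 0.769. Of the 4 tested, the adult contrast called 1 higher and 1 lower (median log2 change 0.17; 2 and 1 with median centring, 0 and 1 with the floor) and the larval contrast 2 higher and 1 lower (median 0.22). The medians over all probe sets tested were -0.04 and 0.04, and 29.0% of these probe sets were called in adults and 25.6% in larvae.

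The 5 genes listed as i-type lysozymes, a class found in invertebrates, were all tested. CG6426, a strong signal at both stages, fell in adults from 11.44 ± 0.07 to 10.10 ± 0.05 (log2 change -1.34, SE 0.16, adjusted p = 6.54e-05) and read 11.69 in both groups of larvae (0.00, adjusted p = 1). CG14823 fell at both stages, with log2 changes of -0.62 in adults (SE 0.18, adjusted p = 0.0206) and -0.90 in larvae (SE 0.18, adjusted p = 0.00282). Its adult call was lost under 7 of 21 alternatives, median centring (adjusted p = 0.129) and quantile normalization (0.174) included. Its other tested probe set read -0.56 in adults and -0.29 in larvae and was not called at either stage, and a further one was not tested. CG6421, CG6429 and CG6435 were dim on every larval array; in adults their log2 changes were -0.82 (adjusted p = 0.346), -0.26 (0.761) and -0.09 (0.944). The adult groups of CG6421 did not overlap (8.53 to 8.82 against 9.48 to 9.62), and the same -0.82 was called with the floor (adjusted p = 0.000198) and with the adult arrays alone (0.000127). In adults limma called 0 of the 5 higher and 2 lower (median -0.62; 0 and 1 with median centring, 0 and 3 with the floor), and in larvae 0 higher and 1 lower (median 0.86, that of the dim CG6429). At an unadjusted p under 0.05 the numbers higher were 0 and 1. Shares called over all probe sets tested were 13.6% higher and 15.4% lower in adults, and 15.0% and 10.7% in larvae. Beside these shares, counts on 5 genes are a description only.

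**Figure D2:**
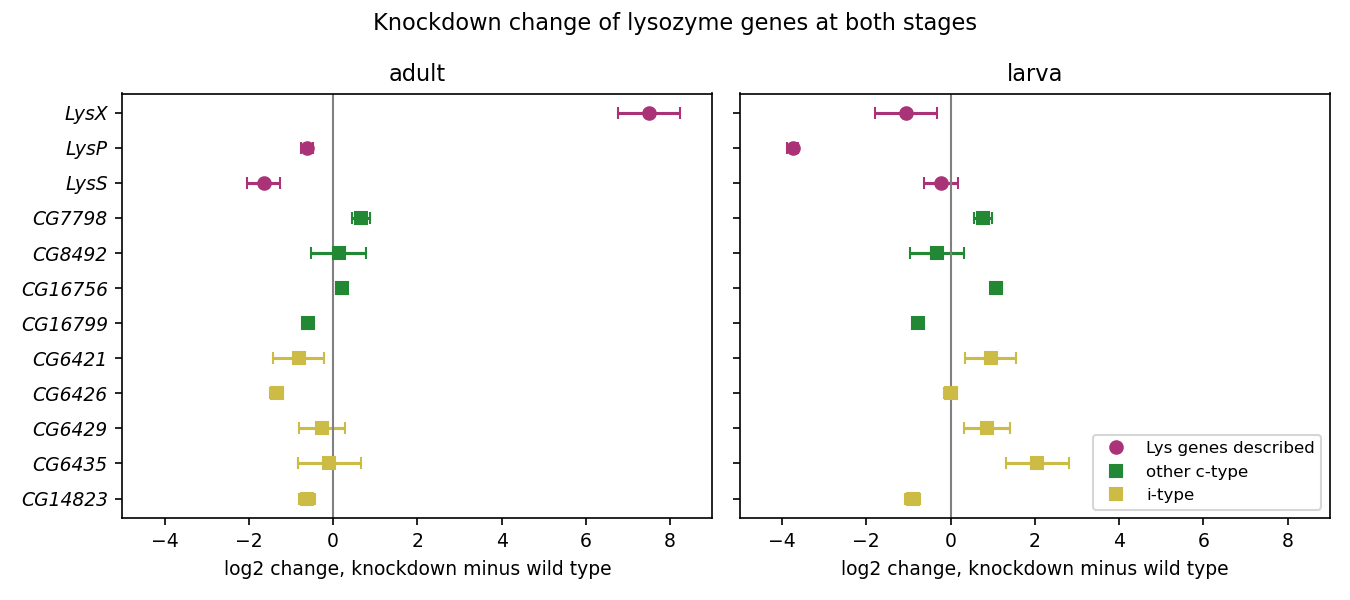
Log2 change, knockdown minus wild type (horizontal axis), of LysX, LysP, LysS and 9 other tested lysozyme genes in adults and in larvae. Points are fitted changes and bars are limma's SE from 3 arrays per group. In adults, the contrast on which the Lys genes were picked, the 9 other genes span -1.34 to 0.66, with LysX (7.50) above and LysS (-1.65) below. The 0.66 is that of CG7798, dim on 5 of the 6 adult arrays. In larvae the 9 other genes span -0.90 to 2.06, with LysP (-3.75) and LysX (-1.05) below. The 2.06 is that of CG6435, dim on all 6 larval arrays and not called.

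The 3 genes share a stretch of the left arm of chromosome 3. In the order of the RefSeq gene table, LysX lies between CG13912 and Aplip1 among genes with a probe set, LysP follows CG9119, and LysS stands between LysP and CG33966. The nearest genes with a probe set, 14 in all, had smaller changes than LysX in adults or LysP in larvae. As LysX was picked on its adult change, the adult part of that comparison is a description only. Of 13 tested, the adult contrast called 4 higher and 1 lower, with log2 changes from -1.29 to 1.49 (median 0.31). The larval contrast called 4 higher and 0 lower by limma (0 lower at an unadjusted p under 0.05), with changes from -1.44 to 1.11 (median 0.33). Of all probe sets tested, 13.6% were called higher and 15.4% lower in adults (median -0.04). In larvae these shares were 15.0% and 10.7% (median 0.04). Whether the 13 neighbours differ from these shares was not tested.

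Psf1, a subunit of the GINS complex of DNA replication, rose by 1.49 in adults (SE 0.15, adjusted p = 1.95e-05) and by 1.11 in larvae (SE 0.15, adjusted p = 0.000213). CG9119, next to LysP in this order, rose by 0.61 (SE 0.11) and 0.52 (SE 0.11), and CG9205 by 0.45 (SE 0.05) and 0.35 (SE 0.05). The mitotic kinesin gene Klp61F rose by 0.44 in adults (SE 0.09). CG13912, next to LysX, fell by 0.60 in adults (SE 0.10, adjusted p = 0.00092); its larval change was 0.23 (adjusted p = 0.12). bab2, which encodes a transcription factor, rose by 0.33 in larvae (adjusted p = 0.0417), and that call was lost under 17 of 21 alternatives.

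The other neighbours were not called at either stage. Aplip1, which encodes a scaffold protein of JNK signalling and lies on the other side of LysX, had changes of 0.40 and 0.34 in adults and larvae (adjusted p = 0.131 and 0.221). Its groups did not overlap at either stage. The adult change was called under 4 of 20 alternatives, median centring (0.68, adjusted p = 0.0153) and the floor (adjusted p = 0.0317) included. bab1 had -1.29 and -1.44 and was dim on 9 of 12 arrays. Its adult groups did not overlap, and the adult change was called with the floor (-0.94, adjusted p = 6.08e-05), with the adult arrays alone (adjusted p = 0.00178) and without larval knockdown replicate 3 (adjusted p = 0.0319), which also gave a called larval change of -2.64 (adjusted p = 0.00182). The guanine nucleotide exchange factor gene trio had -0.16 and 0.16, meep 0.17 and 0.10, CG33966 0.22 and 0.15, galene 0.31 and 0.35, and CG9192 0.46 and 0.60. Of these, CG33966 was called in adults under 2 of 21 alternatives. Both probe sets of mwh, a gene of wing hair polarity, were below the filter and were not tested.

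**Figure D3:**
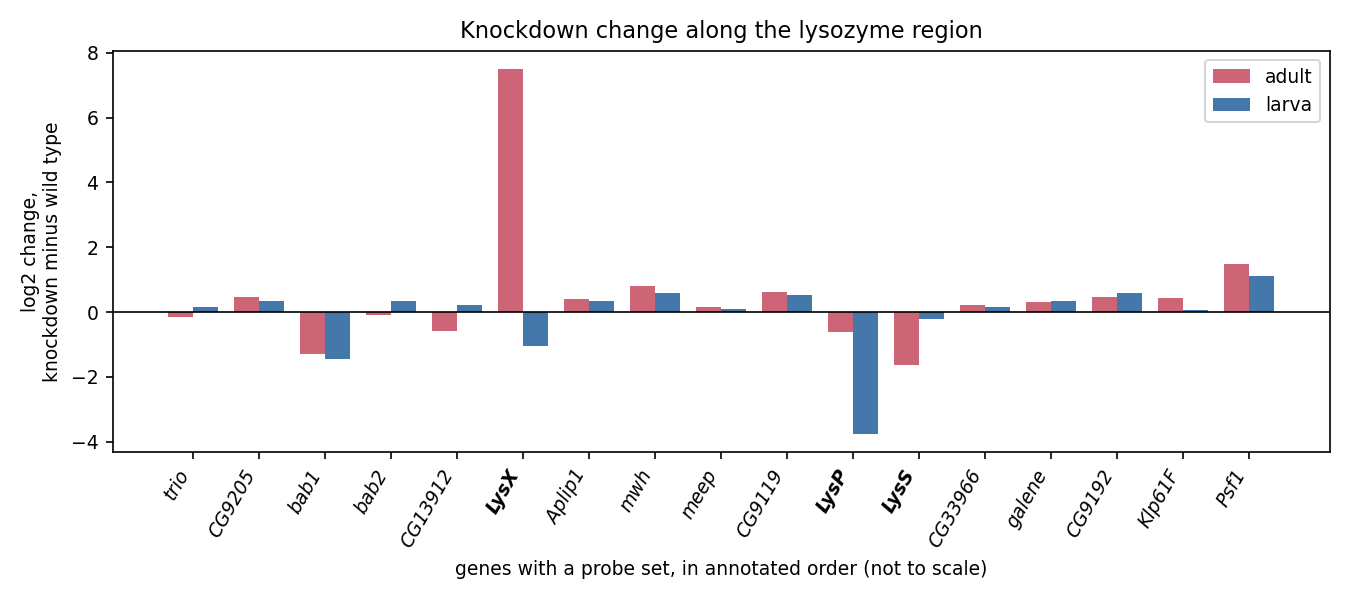
Log2 change, knockdown minus wild type (vertical axis), of LysX, LysP, LysS (bold) and the 14 nearest genes with a probe set, in annotated order along the left arm of chromosome 3 and not to scale. Bars start at 0 and show adults and larvae. Tested changes of the neighbours lay between -1.44 and 1.49, the lowest that of larval bab1, dim on all 6 larval arrays. LysP in larvae lay below that range. LysX in adults lay above it, but LysX was picked on that contrast, so this is a description only. The gene mwh was too dim to be tested.

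Other genes that meet bacteria in the gut or body went in both directions. Of all probe sets tested, 13.6% were called higher and 15.4% lower in adults, and 15.0% and 10.7% in larvae. Beside these shares, counts on lists this small are given as a description. Of 6 tested peptidoglycan recognition protein genes, 1 rose and 1 fell at each stage (2 and 0 in adults with median centring). In adults these were PGRP-SB1 (log2 change 1.16, SE 0.40, adjusted p = 0.0464), a call lost under 10 of 21 alternatives, and PGRP-LB, an enzyme that cleaves peptidoglycan (-0.70, SE 0.19, adjusted p = 0.0151), lost under 4, median centring included. In larvae these were PGRP-LA (0.78, SE 0.15, adjusted p = 0.00213) and the intracellular receptor PGRP-LE (-0.36, SE 0.05, adjusted p = 0.000482). Of 10 tested antimicrobial peptide genes, limma called 0 higher and 1 lower in adults, Drsl4 (-0.83, SE 0.17, adjusted p = 0.003), with the same numbers at an unadjusted p under 0.05. The adult numbers were 0 and 3 with the floor and 1 and 1 with median centring. In larvae 2 were called higher and 0 lower, again with the same numbers unadjusted. They were Drs, which encodes the antifungal peptide drosomycin (2.03, SE 0.67, adjusted p = 0.0439), and Drsl3 (adjusted p = 0.0363), which was dim on all 6 larval arrays and is given no size. Each of these 2 larval calls was lost under 15 alternatives, and quantile normalization left 0 of the list called in larvae.

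Digestive enzymes of the midgut, the tissue in which most Lys genes are known, went both ways. Of 35 tested, 9 rose and 14 fell in adults (median -0.26), a balance that turned to 15 and 10 with median centring. In larvae 6 rose and 9 fell (median 0.02), and 3 and 11 with median centring. Over all probe sets tested, 29.0% were called in adults and 25.6% in larvae, smaller shares than in this list. That difference was not tested. The summed linear signal of the list was 120000 to 136000 on adult knockdown arrays and 149000 to 155000 on adult wild-type arrays, and 243000 to 280000 against 266000 to 295000 in larvae. Its part in the lysozyme values was not tested. In adults the serine protease genes Jon66Ci (log2 change -3.40, SE 0.15, adjusted p = 2.68e-08, dim on the knockdown arrays and so at least 6.39-fold lower) and thetaTry (-1.76, SE 0.12, adjusted p = 8.79e-07) fell, and the maltase genes Mal-A4 (0.95, SE 0.13) and Mal-A8 (1.27, SE 0.17) rose. In larvae Jon66Cii (-2.11, SE 0.19, adjusted p = 9.59e-06) and the lipase gene mag (-1.96, SE 0.17, adjusted p = 6.66e-06) fell, and Mal-A3 (0.59, SE 0.11) and Jon25Biii (0.34, SE 0.07) rose.

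Some genes that mark the late larva fell beside LysP in larvae. By limma 0 of the 5 tested glue genes were called at either stage, and 0 had an unadjusted p under 0.05, whereas the floor gave 1 called lower in adults and 2 in larvae. In larvae their summed signal ran from 32400 to 39600 on knockdown arrays, below the wild-type arrays (52800 to 53600). Both tested larval fat body genes fell in larvae, Lsp2 with a log2 change of -5.60 and Fbp2, dim on 2 of the 3 knockdown arrays, by at least 77.4-fold. The wild-type larvae themselves spread widely, from 9.78 to 14.08 in Lsp2 and from 8.32 to 13.39 in Fbp2. Leaving out single arrays gave -7.02 to -4.87 for Lsp2 and -8.42 to -5.88 for Fbp2, called each time. Lsp2 rose in adults (2.77, a call lost under 8 of 21 alternatives). Of 18 genes of metamorphosis with a probe set, 8 were tested. Among these 0 rose at either stage (0 also at an unadjusted p under 0.05) and 2 fell in larvae. Of all probe sets tested, 13.6% and 15.0% were called higher in adults and larvae, and 15.4% and 10.7% lower. Counts on 8 genes are thus given as a description. The larval falls were in br (-1.04, adjusted p = 0.000456), a transcription factor of the ecdysone response, and ImpL2 (-0.43, adjusted p = 0.0076), which encodes a binding protein of insulin-like peptides. The other tested probe sets of br read -1.12 (limma adjusted p = 0.00523), -0.77 (0.0653) and -0.16 (0.83) in larvae, so not every br probe set was called. In adults ImpL2 (-0.56, adjusted p = 0.00145) and MsrA, listed under its older name Eip71CD (-0.37, adjusted p = 0.0237; -0.09 and not called with median centring), fell. The part of these genes' shifts in the LysP value was not tested.

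The genes whose pattern was most like that of each lysozyme gene were found by the root-mean-square difference of log2 values over the 12 arrays, after each probe set was centred on its own mean. For LysX, whose own SD over the arrays was 2.97, the nearest were Ser12, a serine protease gene, at 1.77, CG3397 at 1.86 and CG14499 at 1.94. None of these tracked it closely. Ser12 read 8.70 in adult knockdown and 3.22 in adult wild type, but 5.41 and 4.81 in larval knockdown and wild type, where LysX read 4.93 and 5.98. Like LysX, Ser12, CG3397 and CG14499 were dim on all 3 adult wild-type arrays. LysP (SD 2.51) was matched more closely, by CG5478 at 0.49, by BomS2, a secreted peptide of the Bomanin family, at 0.66 and by clumsy, a glutamate receptor subunit gene, at 0.72. CG5478 and clumsy were dim on all 6 larval arrays, so their larval falls lie below the dim level. BomS2 read 12.04 and 11.33 in adult wild type and knockdown and 8.36 and 4.97 in larval wild type and knockdown. It was dim on 2 of the 3 larval knockdown arrays, so its larval fall is better given as at least 7.68-fold. LysS (SD 4.80) was matched by CG18649 at 0.32, CG43117 at 0.46 and CG7465 at 0.71, the last dim on all 6 adult arrays. CG18649 read 13.26 and 12.82 in larval wild type and knockdown and 5.30 and 3.55 in adult wild type and knockdown. It was dim on 4 of the 6 adult arrays, and CG43117 was dim on 2 of them. The measure runs over both stages, so the stage difference of each gene counts in it.

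**Figure D4:**
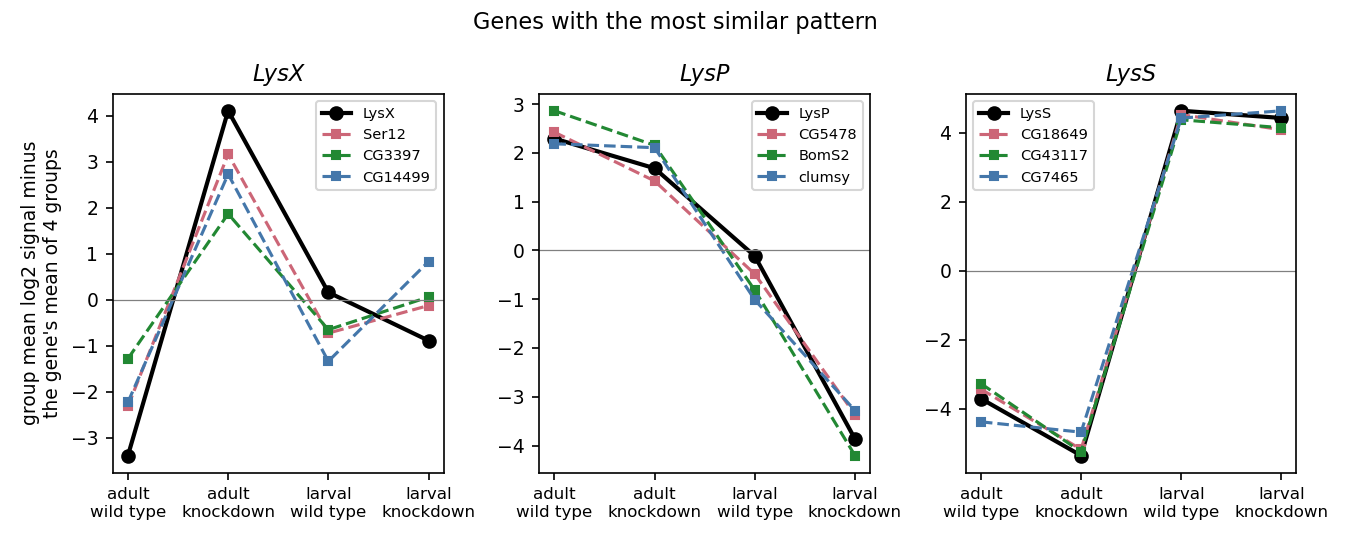
Group mean log2 signal minus the gene's mean of the 4 groups (vertical axis) for LysX, LysP and LysS (black) and the 3 genes nearest to each (dashed), by group. CG5478 and clumsy were dim on all larval arrays and CG7465 on all adult arrays. BomS2 was dim on 2 larval arrays, CG18649 on 4 adult arrays and CG43117 on 2 adult arrays. The genes nearest to LysX were dim on all 3 adult wild-type arrays. Lines join groups for reading only; the curves of LysP and LysS are followed within a root-mean-square difference of 0.72, whereas the genes nearest to LysX differ from it by 1.77 to 1.94.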

How the data were processed

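The authors made the values with MAS5, per the submitters' processing notes, which name no version. The deposited values were taken as log2 because their linear form has nearly the same 2% trimmed mean on all arrays (500.01 to 500.02) and none lies below 0. Detection calls were not used here, and precision is limited by 3 arrays per group.

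Of 18952 probe sets, 183 controls were left out, and 12827 at or above the 40th percentile of their array on at least 3 of the 12 arrays were tested. Symbols came from the platform annotation: 13647 probe sets have 1, 402 several and 4720 none. Of those with 1, 13544 matched the RefSeq table, which changed 0. For genes with several probe sets, the one with the highest mean was used. There were 0 columns without a sample.

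A mean per group was fitted over all 12 arrays (R 4.3.3, limma 3.58.1, moderated with a variance trend; 8 residual degrees of freedom), and p-values were adjusted by Benjamini-Hochberg over all tested probe sets; an adjusted p under 0.05 is a call, and "rose" and "fell" are used of calls. "At least" folds set the dim arrays to their 40th percentile. The fit was tested on simulated data. The lysozyme genes, the lists and the alternatives were chosen with earlier results of these data known. Named were the lysozyme genes, all other lysozymes with a probe set, the 5 nearest genes on either side of each, up to 2 called genes per direction of every other list with the smallest adjusted p, and the 3 genes nearest in pattern. The alternatives were quantile normalization, median centring, no filter, a stricter filter, a floor, 1 stage alone, no trend, array weights, a replicate block and leaving out each array.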

Additional observations from a re-analysis of the deposited data

Results flagged for a closer look

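For 16 of 43 named genes outside LysX, LysP and LysS, the test of the adult minus larval change passed the threshold (limma, adjusted over 12827 probe sets, of which 20.8% passed). Part of the 43 were named because they were called in the adult or larval contrast on these same arrays. Such a choice favours a difference between stages, so the count cannot be compared with that share. Among lysozymes, CG16756 rose in larvae and the difference was -0.89 (adjusted p = 0.00901), and CG6426 fell in adults with a difference of -1.34 (adjusted p = 0.00185). CG13912, next to LysX, had a difference of -0.83 (adjusted p = 0.00232).

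Among genes that sense or kill microbes, the differences were -1.11 for PGRP-LA (adjusted p = 0.00365), 0.49 for PGRP-LE (0.00143), -0.91 for Drsl4 (0.0184) and -3.91 for Drsl3 (0.0263), the last from dim signals in 9 of 12 arrays. Among digestive enzymes they were 0.73 for Mal-A4 (0.0137), -2.56 for Jon66Ci (2.33e-05), -0.69 for thetaTry (0.0148), -0.39 for Jon25Biii (0.0146), 2.37 for mag (9.5e-05) and 2.01 for Jon66Cii (0.000556). Among markers of larval age they were 8.37 for Lsp2 (0.00101), 7.70 for Fbp2 (0.00581, dim on 8 of 12 arrays, so its size is not known) and 0.87 for br (0.0167). The same difference was not tested for LysX, LysP and LysS, since they were picked on the adult contrast.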

How the results depend on the processing

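The larval changes of LysX, LysP and LysS kept their direction and their side of the threshold under all alternatives that gave a value, 21 for LysP and LysS and 20 for LysX, which did not pass the stricter filter. LysP ranged from -4.35 to -2.47 (adjusted p from 7.36e-10 to 2.37e-05), the smallest with the floor. In adults the floor gave 4.60 for LysX and -0.41 for LysS, and LysP was -0.78 after quantile normalization and -0.33 with median centring. Leaving out single arrays gave 6.89 to 8.22 for LysX, -2.04 to -1.01 for LysS and -0.63 to -0.57 for LysP. Turned in sign were the adult changes of CG7798 with the floor (-0.06) and of Jon25Biii with median centring (0.22); uncalled values of other named genes were given no direction. Median centring called 4666 probe sets higher and 779 lower in adults, in place of 1742 and 1975, and 1189 and 1690 in larvae, in place of 1918 and 1369. With 1 stage alone the adult counts were 2878 and 3312 and the larval 1234 and 1001; with array weights the adult counts were 2756 and 3022 and the larval 1295 and 955. Without adult knockdown replicate 2, 1099 were called higher in adults. Replicate numbers did not pair the arrays (residuals of same-numbered arrays correlated at -0.09 to 0.02); with the replicate block the larval LysP change was -3.75 and the adult counts were 1479 higher and 1702 lower. The readings of LysX in adult wild type, LysS in adult knockdown and LysP in larval knockdown are too near background for the size of a change to be known.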
